A study of Mus musculus with 15 samples.

Results

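The miRNAs mmu-miR-205-5p, mmu-miR-31-5p, mmu-miR-375-3p and mmu-miR-184-3p are known from epithelia, and their levels in mouse lung after bleomycin injury are described here. They were taken by name from the deposited table, where 4 of 1424 mature miRNAs carry these names. The names were selected on the differences between bleomycin and PBS libraries of this same table, so those differences are given as a description. Small RNA was sequenced from the whole lungs of 15 mice on a C57BL/6 background. The labels give their age as 11 weeks, and the age at treatment as 8 to 12 weeks. Some were WT and some carried 2 copies of R213G, a variant of the extracellular superoxide dismutase EC-SOD. That enzyme clears superoxide outside cells, and R213G weakens its hold on the matrix. Each mouse received 100 uL into the trachea, either phosphate-buffered saline (PBS) or bleomycin at 1 U/mL, a drug that injures the lung. After 7 days 10 mL of PBS was flushed in at the right ventricle and the lungs were frozen. There were 3 WT PBS libraries and 4 each of WT bleomycin, R213G PBS and R213G bleomycin. Mice of both sexes were used, and no source used here gives the sex behind a library. Each library counted as 1 mouse, though the labels do not say this outright, so p-values measure only the spread between these libraries.

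A miRNA pairs with messenger RNAs mainly through its seed, bases 2 to 8 from the 5′ end, and lowers their output. In skin, cornea and airway, miR-205 is a miRNA of basal cells and, with the miR-200 family, restrains the mesenchymal factors Zeb1 and Zeb2. miR-31 is expressed in keratinocytes and many other epithelia, miR-375 in pancreatic islets and in neuroendocrine and secretory epithelial cells, and miR-184 in the corneal epithelium and the lens. In keratinocytes miR-184 is known to relieve the lipid phosphatase SHIP2 of repression by miR-205. In whole lung, fewer cells of a type and less RNA per cell cannot be told apart.

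The mature sequences show that 3 of the members share no seed, with the seed in capitals and the remaining bases in lower case, 5′ to 3′ (RefSeq, GRCm38.p6).
miR-205-5p: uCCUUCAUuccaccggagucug
miR-31-5p: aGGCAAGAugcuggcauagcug
miR-184-3p: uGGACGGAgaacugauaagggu
The list of mature sequences held 3 of the 4 members, and miR-375-3p was not matched. The 3 seeds differ from each other, and 0 other mature sequences among the 1738 in that list carry any of them. The 4 are described one by one and not as a seed family.

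The genes also lie apart (GRCm38.p6, all on the minus strand). Mir205 is at chr1:193507463-193507530, inside an exon of the lincRNA 4631405K08Rik in GENCODE M21. Mir31 is at chr4:88910557-88910662, inside an exon of the lincRNA AL805899.1. Mir375 is at chr1:74900658-74900721, between genes, 1350 bases from Cfap65 and 7515 bases from Cryba2. Mir184 is at chr9:89802260-89802328, with no other annotated gene overlapping it and Ankrd34c, the nearer protein-coding gene, 63785 bases away. These positions come from the reference alone, as no source used here names the build behind the deposited table.

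Each value is a log2 level, read from the values as log2 of 1 plus a count scaled to equal library size. The 4 members stood at different levels, and all 4 passed the filter on low values, as did 818 of the 1424 miRNAs. Across the 15 libraries miR-375-3p ranged from 14.20 to 15.19 and ranked between 64 and 76 by level. Next came miR-31-5p, from 11.75 to 13.03, ranked 99 to 141. The ranges of miR-205-5p, 8.74 to 11.98 (ranks 134 to 259), and of miR-184-3p, 7.16 to 10.18 (ranks 197 to 333), overlapped. The 3 mature forms printed above are each 22 bases long. No source used here calibrates levels between different miRNAs, so their order describes the values alone.

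Markers of the labelled tissue were present throughout. Epithelial miRNAs (the miR-200 family, miR-203 and the miR-183 cluster, 9 in all) summed to between 18.42 and 18.94 per library, and both strands of the endothelial miR-126a to between 19.63 and 20.24. None of these was at 0 in any library. The summed values of all miRNAs were 18087289.8 to 24759615.3 per library. WT PBS replicate 3 stood apart in striated muscle miRNAs. There the skeletal muscle miRNA miR-206-3p was at 7.03 against 0 to 3.65 in the other 14 libraries. The 6 listed muscle miRNAs summed to 16.33 there, against 14.33 and 14.03 in WT PBS replicates 1 and 2.

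After bleomycin mmu-miR-205-5p was lower. WT PBS libraries held 10.70, 9.99 and 11.95, and WT bleomycin libraries held 10.01, 9.53, 9.43 and 9.44. R213G PBS libraries held 11.98, 11.42, 10.77 and 10.97, and R213G bleomycin libraries held 8.74, 9.57, 9.76 and 9.44. In R213G every bleomycin library lay below every PBS library. In WT the ranges touched, since WT PBS replicate 2 lay just below WT bleomycin replicate 1. The group means were 10.88 ± 0.99 (SD, n = 3) and 9.60 ± 0.28 (SD, n = 4) in WT, and 11.28 ± 0.54 (SD, n = 4) and 9.38 ± 0.44 (SD, n = 4) in R213G. The log2 difference was -1.28 ± 0.37 (SE, 95% confidence interval -2.06 to -0.50) in WT and -1.90 ± 0.34 (SE, -2.63 to -1.18) in R213G. On the scale of geometric means it fell by 58.8% in WT and fell by 73.3% in R213G. The R213G difference was the fourth most negative of the 818, and the WT difference had rank 19 from the bottom.

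The WT difference of miR-205-5p leaned on WT PBS replicate 3. Without that library it was -0.75 and no longer passed the threshold (limma, adjusted p = 0.0841). The difference in R213G ranged from -2.08 to -1.67 as each library was left out and kept passing. Sample names carry a running number, and the labels do not say what it marks. The 8 R213G numbers are consecutive, and were split here into the lower 4 (replicates 1 and 3) and the upper 4 (replicates 2 and 4), each with 2 libraries per treatment. The difference was -2.13 in the lower set and -1.68 in the upper. Both sets are small and split the same contrast, so these values are a description. In WT the numbers follow the treatment, so number order and bleomycin cannot be told apart there.

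**Figure D1:**
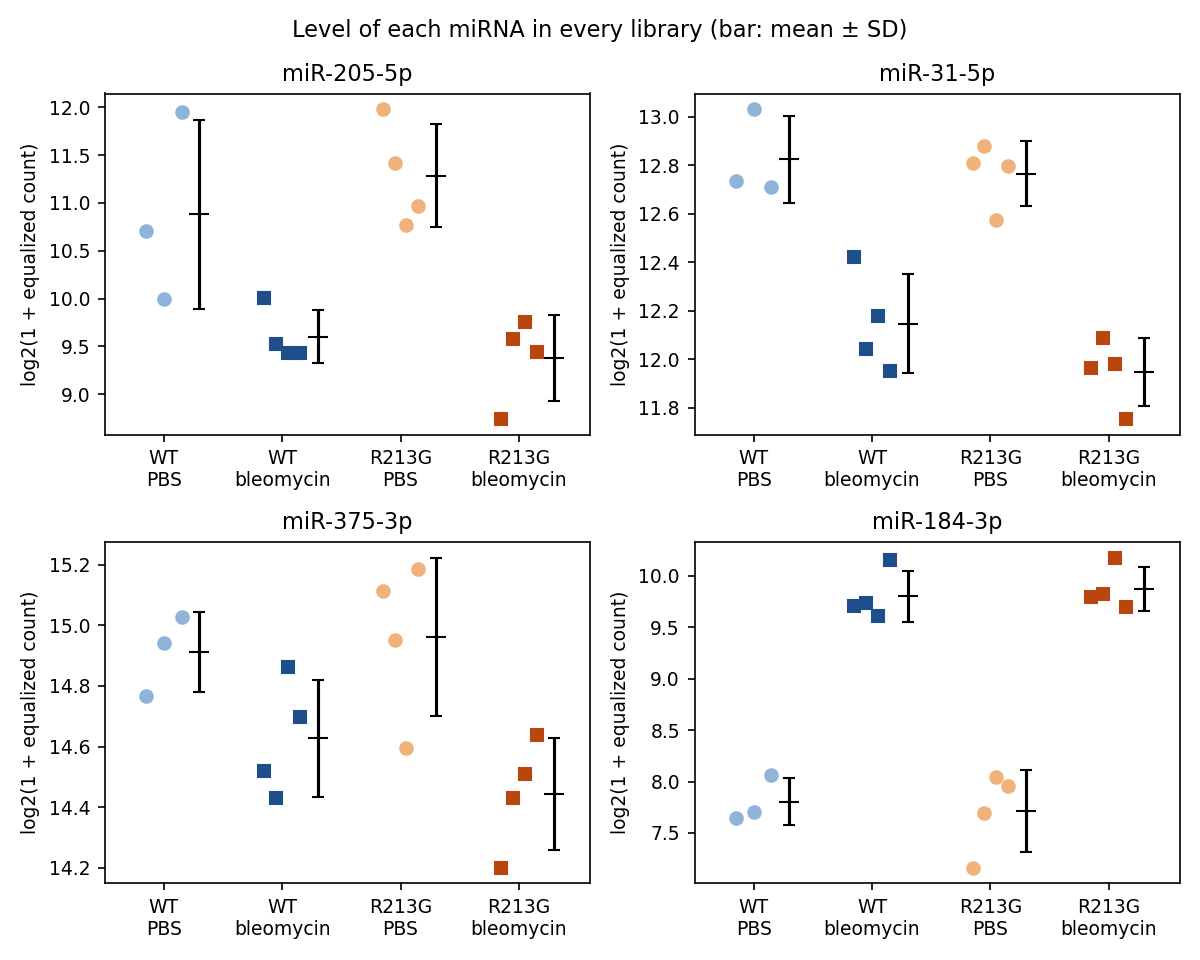
Each point is 1 library, with log2(1 + equalized count) on the y axis (not starting at 0) and the 4 groups on the x axis, and the bar beside each group is the mean ± SD. For miR-184-3p and miR-31-5p all bleomycin libraries lie clear of the PBS libraries of the same genotype, while miR-205-5p spreads from 9.99 to 11.95 in WT PBS.

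The other strand of the same hairpin, miR-205-3p, gives a second reading of the precursor. Both strands are shown in capitals within the hairpin, since their values are compared.
Mir205: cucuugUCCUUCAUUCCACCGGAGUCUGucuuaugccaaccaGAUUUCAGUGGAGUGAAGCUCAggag
miR-205-3p was scarce, at 2.69, 2.01 and 4.01 in WT PBS and 2.02, 2.02, 1.99 and 2.64 in WT bleomycin. It stood at 4.25, 3.88, 2.88 and 2.52 in R213G PBS and at 1.25, 2.58, 2.58 and 1.20 in R213G bleomycin. It passed the filter mainly through PBS libraries: in R213G no bleomycin library exceeded the floor, the highest being 4.99 in equalized counts. A lower level after bleomycin is therefore in part set by the filter, and no test of it is given. The 2 highest values came from WT PBS replicate 3 and R213G PBS replicate 1, the same 2 libraries that were highest for miR-205-5p. The log2 difference was -1.48 ± 0.50 (SE) in R213G and -0.73 ± 0.54 (SE) in WT. The treatments overlapped in both genotypes.

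Within groups, the strands of miR-205 went together, most clearly after PBS. After the group mean was taken off each library, the correlation over the 15 libraries was r = 0.816 (permutation p = 0.00552, adjusted p = 0.0497 over 9 relations). Spearman's rho was 0.861 (permutation p = 0.00158, adjusted p = 0.0142). Without the 2 libraries farthest out, WT PBS replicates 2 and 3, r was 0.711. It was 0.948 within the 7 PBS libraries and 0.503 within the 8 bleomycin libraries. In the bleomycin libraries miR-205-3p reached at most 5.23 in equalized counts, near the filter's floor of 5, so its values there say little.

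**Figure D2:**
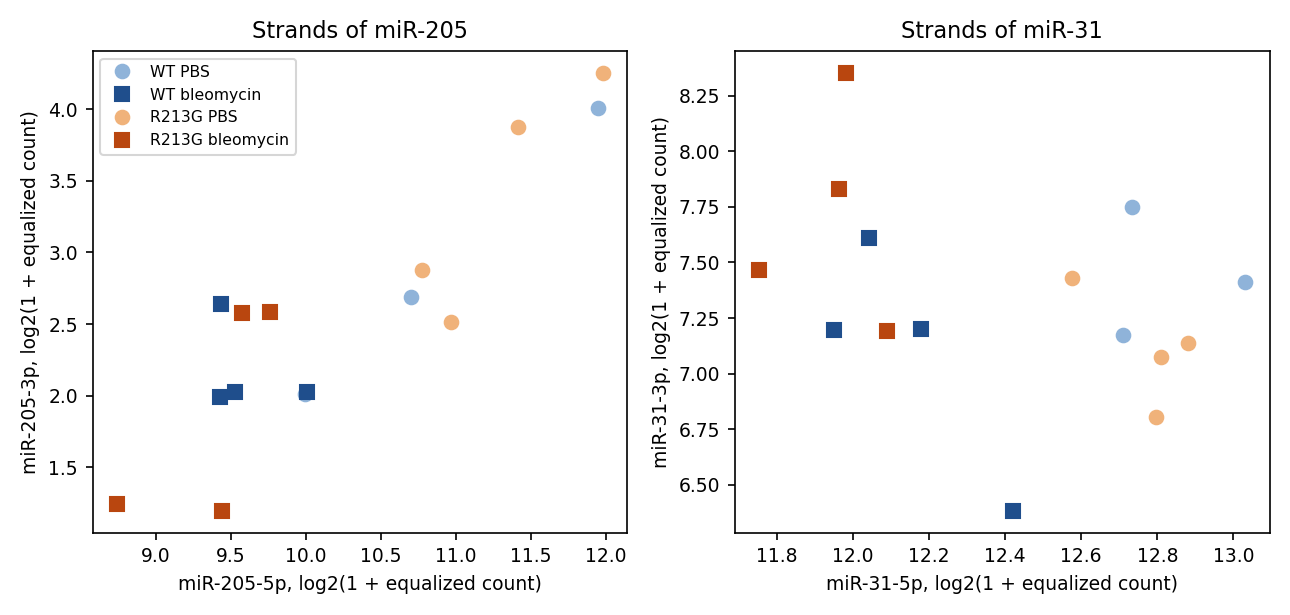
Each point is 1 library, with the member strand on the x axis and the other strand of the hairpin on the y axis, both as log2(1 + equalized count), and colour and shape give the group. The strands of miR-205 are high in the same libraries, whereas the R213G bleomycin libraries hold low miR-31-5p and some of the highest miR-31-3p values.

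Some striated muscle miRNAs were also lower after bleomycin. In WT 2 of the 5 tested were called lower, and in R213G 3 of 5, with none called higher, where 10.3% and 19.8% of all tested miRNAs were called lower. Their median log2 difference was -0.98 in WT and -0.45 in R213G, against 0.047 and 0.054 for the median of all 818. Without WT PBS replicate 3 the WT median was -0.35, with 2 still called lower. The sum of all 6 in the table was 14.03 to 16.33 in WT PBS and 13.06 to 13.89 in WT bleomycin. It was 14.45 to 14.94 in R213G PBS and 12.12 to 13.14 in R213G bleomycin. In neither genotype did the sums overlap between treatments. The defining skeletal muscle miRNA miR-206-3p was at 0 in R213G PBS replicates 1 and 2. The most abundant member, miR-133a-3p, fell by 1.52 in WT and by 2.18 in R213G (limma, adjusted p = 0.0121 and 0.000429).

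With the group means taken off, the muscle sum and miR-205-5p had r = 0.744 over the 15 libraries (permutation p = 0.0318, adjusted p = 0.143). Spearman's rho was 0.582 (permutation p = 0.0714, adjusted p = 0.321). Without WT PBS replicates 2 and 3, r was 0.406, so the relation rests on those libraries. It was 0.826 within the 7 PBS libraries and 0.478 within the 8 bleomycin libraries. The sum is mostly miR-133a-3p, and the list did not go one way with miR-205-5p. Taken singly, miR-1a-3p, miR-133a-3p and miR-133b-3p had r of 0.693, 0.744 and 0.619, miR-499-5p 0.226 and the heart and slow muscle miRNA miR-208b-3p -0.565. The part of muscle or other attached tissue in the miR-205-5p difference was not tested.

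**Figure D3:**
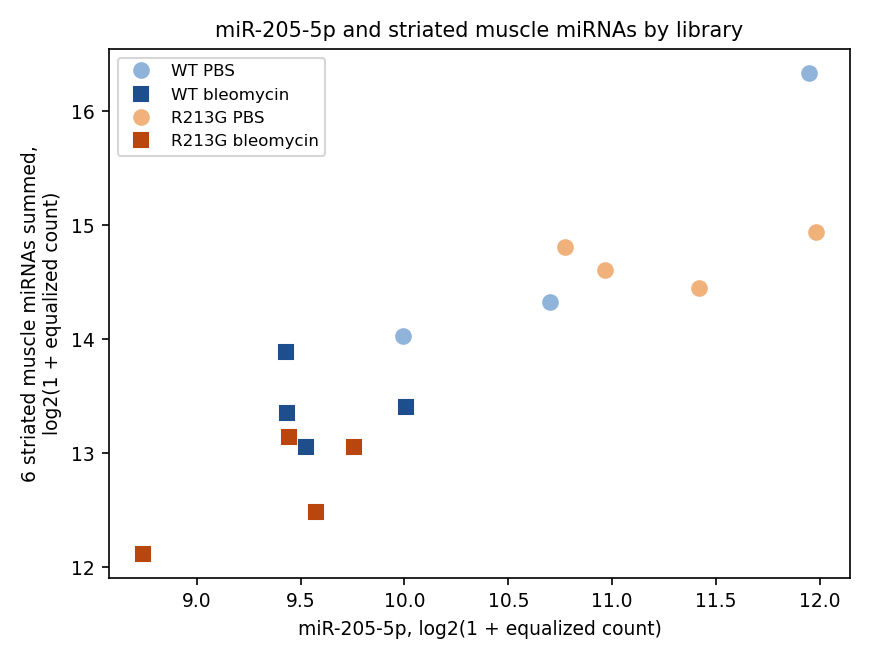
Each point is 1 library, with miR-205-5p on the x axis and the summed 6 striated muscle miRNAs on the y axis, both as log2(1 + equalized count). WT PBS replicate 3, at 11.95 and 16.33, is the highest library in muscle miRNAs, and all bleomycin libraries lie at or below 13.89 on the y axis.

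The difference was smaller for mmu-miR-31-5p, with less spread between libraries. WT PBS libraries held 12.73, 13.03 and 12.71, and WT bleomycin libraries held 12.42, 12.04, 12.18 and 11.95. R213G PBS libraries held 12.81, 12.88, 12.58 and 12.80, and R213G bleomycin libraries held 11.96, 12.09, 11.98 and 11.75. In both genotypes every bleomycin library lay below every PBS library. The log2 difference was -0.68 ± 0.13 (SE, 95% confidence interval -0.95 to -0.41) in WT, where the level fell by 37.5%. In R213G it was -0.82 ± 0.12 (SE, -1.07 to -0.57), and the level fell by 43.3%. Within the lower and upper R213G numbers it was -0.72 and -0.92.

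The other strand, miR-31-3p, was called in neither genotype. Both strands are in capitals within the hairpin, as their values are compared.
Mir31: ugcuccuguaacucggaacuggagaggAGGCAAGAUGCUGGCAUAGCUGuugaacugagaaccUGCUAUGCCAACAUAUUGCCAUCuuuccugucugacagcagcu
Levels of miR-31-3p were 7.75, 7.41 and 7.18 in WT PBS and 6.38, 7.61, 7.20 and 7.20 in WT bleomycin. They were 7.08, 7.14, 7.43 and 6.80 in R213G PBS and 7.83, 7.19, 8.35 and 7.46 in R213G bleomycin. The groups overlapped in both genotypes. The log2 difference was -0.35 ± 0.28 (SE) in WT and 0.60 ± 0.26 (SE) in R213G, and neither passed (limma, adjusted p = 0.386 and 0.0771). The R213G value passed without R213G bleomycin replicate 2 (0.77, adjusted p = 0.031) and with a term for the lower and upper numbers (adjusted p = 0.0466). Within the lower and upper R213G numbers the difference was 0.84 and 0.36. The R213G response of miR-31-3p minus its WT response was 0.95 ± 0.38 (SE), with an unadjusted p of 0.0254 that did not survive adjustment (limma, adjusted p = 0.587).

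The log2 ratio of miR-31-5p to miR-31-3p sets the strands side by side in the same library. It was 5.38 ± 0.35 (SD, n = 3) in WT PBS and 5.05 ± 0.70 (SD, n = 4) in WT bleomycin. In R213G it was 5.65 ± 0.36 (SD, n = 4) after PBS, from 5.14 to 5.99, and 4.24 ± 0.52 (SD, n = 4) after bleomycin, from 3.63 to 4.90. The fall of miR-31-5p, a part of this change in R213G, was known when the miRNA was picked. The miR-31-3p part did not pass, so the ratio is given as a description. With group means taken off, the strands had r = -0.448 over the 15 libraries (permutation p = 0.162, adjusted p = 0.434), with r = -0.352 within PBS and r = -0.501 within bleomycin libraries. Spearman's rho was -0.389 (permutation p = 0.21, adjusted p = 0.629), and r was -0.243 without WT bleomycin replicates 1 and 4. For miR-205 the log2 ratio of the strands was 7.98 and 7.43 in WT and 7.90 and 7.48 in R213G (means, PBS before bleomycin).

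The most abundant of the 4, mmu-miR-375-3p, differed least. WT PBS libraries held 14.77, 14.94 and 15.03, and WT bleomycin libraries held 14.52, 14.43, 14.86 and 14.70. R213G PBS libraries held 15.11, 14.95, 14.60 and 15.19, and R213G bleomycin libraries held 14.20, 14.43, 14.51 and 14.64. The groups overlapped in both genotypes, in R213G only because PBS replicate 3 lay below bleomycin replicate 4. The log2 difference was -0.52 ± 0.13 (SE, 95% confidence interval -0.80 to -0.23) in R213G and -0.29 ± 0.15 (SE, -0.59 to 0.022) in WT. Within the lower and upper R213G numbers it was -0.50 and -0.54.

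The scaling of the libraries mattered for miR-375-3p. With quantile normalization the WT difference was 0.070 (limma, adjusted p = 0.76) and the R213G difference -0.29 (adjusted p = 0.093), so neither passed. With every library shifted to the same median, the WT difference was -0.40 and passed (limma, adjusted p = 0.04). That shift moved the median of all tested miRNAs from 0.047 to -0.070 in WT and from 0.054 to -0.080 in R213G. Under both scalings miR-205-5p and miR-31-5p stayed lower and miR-184-3p higher after bleomycin, and each kept its call in both genotypes. The strand miR-375-5p was listed at or near 0, between 0 and 2.08, and was not tested.

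Of 4 other miRNAs of neuroendocrine and neural cells, 2 rose and 2 did not pass in each genotype, and none fell. Of all tested miRNAs 16.4% rose in WT and 22.2% in R213G. The miR-7 family, shared by islets and neuroendocrine cells, gave both risers. Of these miR-7a-5p rose by 1.01 and 0.92 and miR-7b-5p by 2.24 and 2.47 (WT and R213G, limma, adjusted p = 0.00155, 0.00108, 0.00479 and 0.00093). After PBS miR-7b-5p was scarce, near the filter's floor of 5. In equalized counts it held 4.38 to 19.28 in WT PBS and 3.24 to 14.56 in R213G PBS, so the size of its rise is uncertain. The most abundant of the list, the neural miR-9-5p, had differences of 0.18 and 0.35 and did not pass (limma, adjusted p = 0.813 and 0.564). The list's median was 1.04 in WT and 1.30 in R213G. Without WT PBS replicate 3, which held the highest summed level of the list at 9.89, the WT median was 1.496 and 3 of the 4 rose. The brain miRNA miR-124-3p was at 0 in R213G PBS replicate 2.

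After bleomycin mmu-miR-184-3p was higher. WT PBS libraries held 7.64, 7.71 and 8.07, and WT bleomycin libraries held 9.70, 9.73, 9.60 and 10.16. R213G PBS libraries held 7.16, 7.70, 8.05 and 7.96, and R213G bleomycin libraries held 9.79, 9.82, 10.18 and 9.70. In both genotypes the gap between the highest PBS and the lowest bleomycin library was wider than the spread within either group. The log2 difference was 1.99 ± 0.20 (SE, 95% confidence interval 1.57 to 2.42) in WT, a 3.98-fold rise. In R213G it was 2.16 ± 0.19 (SE, 1.76 to 2.55), a 4.45-fold rise. Within the lower and upper R213G numbers it was 2.38 and 1.93. The differences had ranks 17 and 18 from the top of the 818. The strand miR-184-5p was not tested. It was at 0 in all 3 WT PBS and 3 of the 4 R213G PBS libraries, and its highest value was 1.38.

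The order of miR-205-5p and miR-184-3p was not the same after bleomycin as after PBS. In PBS libraries miR-205-5p exceeded miR-184-3p in 3 of 3 WT and 4 of 4 R213G libraries, by a mean log2 ratio of 3.08 ± 0.80 (SD, n = 3) and 3.57 ± 0.93 (SD, n = 4). After bleomycin miR-205-5p was the higher in 1 of 4 WT libraries and in 0 of 4 R213G libraries. The log2 ratio was then -0.20 ± 0.42 (SD, n = 4) in WT, from -0.72 to 0.31, and -0.49 ± 0.38 (SD, n = 4) in R213G, from -1.05 to -0.25. In WT bleomycin the 2 miRNAs therefore did not differ beyond their spread. Both differences that make up this change were known when the miRNAs were picked. Levels were not calibrated between different miRNAs, so which of the 2 was higher describes the values and not the number of molecules.

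In all, 1 of the 4 members was called higher (miR-184-3p) and 2 lower (miR-205-5p and miR-31-5p) after bleomycin in WT, at an adjusted p under 0.05 by limma over all 818. Of all tested miRNAs, 26.7% were called in WT, 16.4% up and 10.3% down. In R213G 1 member was called higher and 3 lower, where 42.1% of all were called, 22.2% up and 19.8% down. Libraries of the treatments did not overlap for 1 member upward and 1 downward in WT, where 32.3% of all tested miRNAs did not (18.7% upward and 13.6% downward). In R213G they did not for 1 upward and 2 downward, against 39.2% of all (21.9% upward and 17.4% downward). In the authors' deposited table, 1 of the 4 had a q-value under 0.05 in WT by their parametric test (miR-184-3p, 0.0302) and 3 in R213G (miR-31-5p at 0.00743, miR-184-3p at 0.0101 and miR-205-5p at 0.0259). By their rank test none of the 4 did. Where a member's libraries did not overlap, its rank-test p was 0.0571 in WT and 0.0286 in R213G, the lowest possible with so few libraries. The rank-test q-values there were 0.223 and 0.109, so a miss by that test says little about a member. Such parametric q-values belonged to 0.795% and 11.4% of the miRNAs tested there. The members were selected with these contrasts known, so their counts bear on nothing beyond them.

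**Figure D4:**
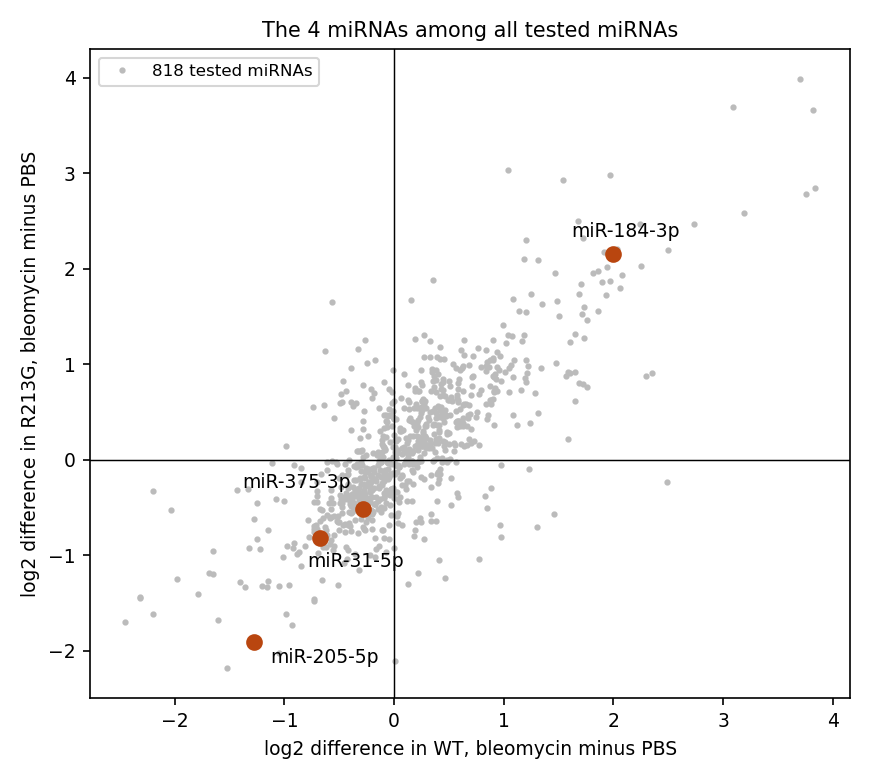
Each grey point is 1 of the 818 tested miRNAs, with the log2 difference between bleomycin and PBS in WT on the x axis and in R213G on the y axis, and the 4 named miRNAs are in colour. miR-184-3p lies far up and to the right at 1.99 and 2.16, miR-205-5p far down and to the left at -1.28 and -1.90, and miR-31-5p and miR-375-3p lie nearer the centre.

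Genotype was compared as well, and earlier results of these data were known when the 4 miRNAs were chosen. None of the 4 differed between R213G and WT after PBS, after bleomycin or in the size of the bleomycin response (limma, 0 of 4 in each). Of all tested miRNAs 0% were called in each of these comparisons. At an unadjusted p under 0.05 there were 44 (5.38%), 97 (11.9%) and 65 (7.95%). After PBS the R213G minus WT log2 difference was 0.40 ± 0.37 (SE) for miR-205-5p (95% confidence interval -0.38 to 1.19, limma, adjusted p = 0.957). It was -0.059 for miR-31-5p (-0.33 to 0.21), 0.050 for miR-375-3p (-0.26 to 0.36) and -0.089 for miR-184-3p (-0.51 to 0.34), with adjusted p of 0.991, 0.992 and 0.991. The interval of miR-205-5p reaches past a difference of 2-fold. Its PBS difference was -0.040 without WT PBS replicate 2 and 0.94 without WT PBS replicate 3.

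After bleomycin the R213G minus WT differences were -0.22 for miR-205-5p (95% confidence interval -0.95 to 0.50), -0.20 for miR-31-5p (-0.45 to 0.049), -0.18 for miR-375-3p (-0.47 to 0.10) and 0.073 for miR-184-3p (-0.32 to 0.47). Their adjusted p were 0.853, 0.524, 0.626 and 0.905 (limma). The R213G response minus the WT response was -0.62 ± 0.50 (SE) for miR-205-5p (-1.69 to 0.44, adjusted p = 0.786) and -0.14 ± 0.17 for miR-31-5p (-0.51 to 0.23, 0.874). It was -0.23 ± 0.20 for miR-375-3p (-0.65 to 0.19, 0.801) and 0.16 ± 0.27 for miR-184-3p (-0.42 to 0.74, 0.926). All 4 intervals include 0, and they do not show that the responses are alike. All R213G libraries have lower numbers than all WT libraries, so genotype and number order cannot be told apart.

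Among the other epithelial miRNAs, 2 of 9 were called lower in WT and 5 of 9 in R213G, and none was called higher. Of all tested miRNAs 10.3% and 19.8% were called lower. Their median was -0.14 in WT and -0.30 in R213G, against 0.047 and 0.054 for all tested miRNAs. The gap depended on the scaling, mostly in WT. With quantile normalization the medians were -0.064 and -0.22, against -0.036 and -0.033 for all tested miRNAs. With equal library medians they were -0.26 and -0.43, against -0.070 and -0.080. The most negative of the 9 were at -0.38 in WT and -0.49 in R213G, nearer 0 than miR-205-5p and miR-31-5p in the same genotype. The keratinocyte miRNA miR-203-3p fell in both, by 0.35 in WT and 0.35 in R213G (limma, adjusted p = 0.018 and 0.00894). In R213G miR-429-3p and miR-200b-3p, which share a cluster and restrain Zeb1 and Zeb2, fell by 0.49 and 0.43 (adjusted p = 0.000903 and 0.00186). There miR-182-5p fell by 0.30 and miR-200a-3p by 0.39 (adjusted p = 0.0194 and 0.0473). In WT miR-200c-3p fell by 0.38 (adjusted p = 0.046). Others lay above 0 and did not pass. In R213G miR-183-5p, miR-141-3p and miR-96-5p had differences of 0.13, 0.078 and 0.017. In WT miR-183-5p and miR-141-3p had differences of 0.0091 and 0.0078.

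These counts depended on single libraries. In WT the 2 fallers became 0 without WT PBS replicate 2, and 1 without WT PBS replicate 1 or 3 or without WT bleomycin replicate 1, 2 or 4. In R213G the 5 became 3 without R213G bleomycin replicate 4 or without R213G PBS replicate 1 or 4. Quantile normalization gave 2 down and 1 up there. Shares over all tested miRNAs were 16.4% up and 10.3% down in WT, and 22.2% and 19.8% in R213G, for comparison with the counts that follow. Ciliated cell miRNAs went both ways, with 2 of 5 up and 1 down in each genotype. Of 5 leukocyte miRNAs, 3 were called higher in WT. In R213G 2 of them were called higher and 1 lower. Their sum was 16.85 to 16.99 in WT PBS, 17.13 to 17.51 in WT bleomycin, 17.27 to 17.44 in R213G PBS and 17.06 to 17.33 in R213G bleomycin. Of 4 erythroid miRNAs, 3 were called lower in WT and 2 in R213G. Their sum was 16.51 to 17.78 in WT PBS, 14.59 to 15.09 in WT bleomycin, 16.25 to 17.81 in R213G PBS and 15.39 to 17.22 in R213G bleomycin. No leukocyte or erythroid miRNA of these lists was at 0 in any library. The part of the makeup of the lung in the member differences was not tested.

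**Figure D5:**
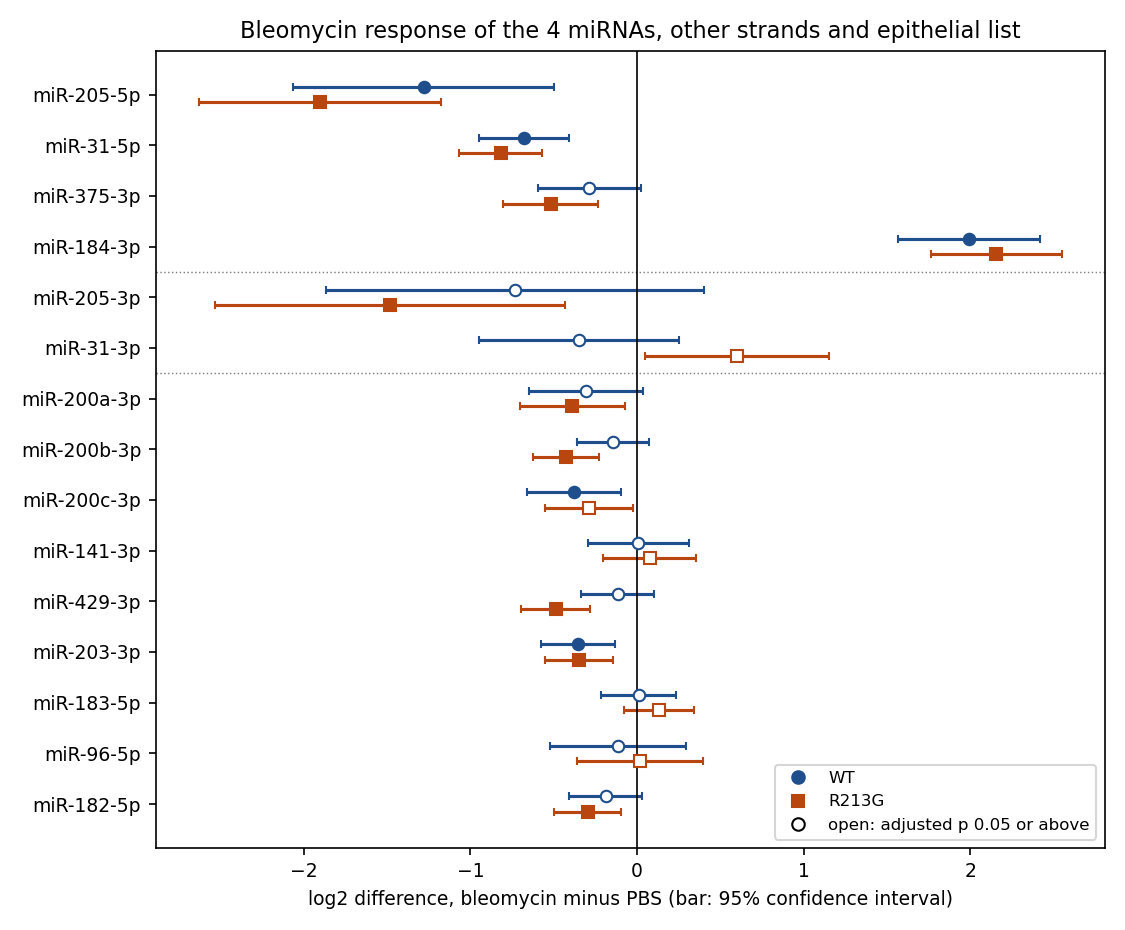
Points are log2 differences between bleomycin and PBS on the x axis with 95% confidence intervals, in WT (circles) and R213G (squares), for the 4 miRNAs, the 2 tested other strands and the 9 epithelial miRNAs, and open symbols did not pass. The filter bears on miR-205-3p, whose symbols are read as a description. miR-205-5p and miR-184-3p lie farther from 0 than any of the 9 epithelial miRNAs, and miR-31-3p lies on opposite sides of 0 in the 2 genotypes, with both of its symbols open.

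No pair of the 4 members was shown to track from mouse to mouse, though so few libraries can miss a moderate relation. With group means taken off, the 6 pairs had r from -0.343 (miR-31-5p and miR-184-3p) to 0.352 (miR-205-5p and miR-375-3p) over the 15 libraries, and the lowest adjusted permutation p was 0.434. Without the 2 libraries farthest out these were -0.220 and 0.405. The pair miR-205-5p and miR-31-5p went from 0.0087 to 0.484 without WT PBS replicates 2 and 3. Spearman's rho for those 2 pairs was -0.296 and 0.264 (permutation p = 0.336 and 0.368, adjusted p = 0.662 for both). For miR-205-5p and miR-184-3p, which moved in opposite directions with treatment, r was -0.085 (permutation p = 0.77, adjusted p = 0.877). For miR-31-5p and miR-375-3p r was 0.521 within PBS and -0.286 within bleomycin libraries.

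Each member had other closest partners, by the same measure over the same 15 libraries and the tested miRNAs, leaving out the other strand of its own hairpin. For miR-205-5p they were miR-5132-3p (r = 0.835), miR-384-3p (0.819) and miR-149-5p (0.813), the last just below the 0.816 of the strand left out. The first 2 of the 3 are scarce, with mean levels of 2.84 and 2.62. For miR-31-5p they were miR-27b-3p (0.859), miR-361-3p (0.828) and miR-542-5p (0.827). For miR-375-3p they were miR-465b-5p (0.833), miR-676-3p (0.806) and the ciliated cell miRNA miR-34b-3p (0.796). For miR-184-3p they were miR-501-5p (0.820), miR-3064-3p (0.784) and miR-146b-5p (0.744), a brake on NF-kB signalling. Of these miR-3064-3p is scarce, with a mean level of 2.75. The libraries share their scaling and tissue makeup, and these are the highest values out of all tested miRNAs but the other strand, so they are given as a description.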

How the data were processed

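Small RNA was profiled in 15 whole-lung libraries. Bowtie2 2.3.2, SAMtools 1.9 and edgeR are named in the submitters' processing notes, with the build and miRBase release not given in the sources used here. The deposited table holds log2 values per library, made by the authors, for 1424 mature miRNAs. From the values, these are log2 of 1 plus a library-size-equalized count. No source states that unit, and the table's name mentions RPKM. The table also holds the authors' log2 fold changes with p-values and q-values of Welch and Wilcoxon tests. Read depth per library is unknown, so no counting interval is given.

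From the deposited log2 values, group means were fitted to the 15 libraries together in limma 3.58.1 under R 4.3.3, letting the variance follow the mean level. A miRNA entered the fit if at least 3 libraries held an equalized count above 5, which left 818. Benjamini-Hochberg adjustment covered these within each of 5 contrasts, at a threshold of 0.05. Count models were not used, since no counts could be had from the table. The procedure was tested on simulated data. Deviations from group means were correlated with 100000 permutations within groups. Alternatives covered each library left out, the filter, the pseudocount, 2 scalings, the trend, the compared groups alone, a replicate block and a term for the lower and upper R213G sample numbers. Named miRNAs were the 4 members, their other strands, up to 6 called members of the epithelial list, the most abundant of other lists (up to 2), and the 3 likest miRNAs per member. The muscle and neural miRNAs miR-206-3p, miR-1a-3p, miR-133b-3p, miR-499-5p and miR-124-3p, and miR-7b-5p, were named after their values were seen. So were the epithelial miR-183-5p, miR-141-3p and miR-96-5p. The members and lists were chosen with earlier results of these data known.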

Additional observations from a re-analysis of the deposited data

Results flagged for a closer look

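Within groups of 4 libraries, the highest or lowest value was far from the rest in 2 of 18 groups examined, by Dixon's criterion at 95%, which chance meets in about 1 in 20 groups. For miR-205-5p in WT bleomycin, replicate 1 at 10.01 lay above the other 3 libraries, which were at 9.43 to 9.53. For miR-205-3p in WT bleomycin, replicate 4 at 2.64 lay above the others, at 1.99 to 2.02. The 2 strands pointed to different libraries.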

How the results depend on the processing

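Across the alternatives, miR-31-5p and miR-184-3p kept their direction and call after bleomycin in both genotypes, and miR-205-5p did in R213G. In WT the miR-205-5p difference ranged from -1.72 to -0.75 as each library was left out, and without WT PBS replicate 3 it did not pass. The call of miR-375-3p depended on the scaling. In WT it was -0.40 with equal library medians, where it passed, and 0.070 with quantile normalization, and in R213G it was -0.29 with quantile normalization, where it did not pass. The cause was not tested. With 1 library left out, the epithelial fallers ranged from 0 to 2 in WT and from 3 to 6 in R213G. They were 1 in WT with no filter, no intensity trend, the compared groups alone or the replicate block, and 2 in R213G with quantile normalization. The genotype differences near 0 changed sign with 1 library left out, and none passed. After PBS they ranged from -0.040 to 0.94 for miR-205-5p, -0.12 to 0.044 for miR-31-5p, -0.025 to 0.17 for miR-375-3p and -0.20 to 0.096 for miR-184-3p. For miR-184-3p they ranged from -0.029 to 0.19 after bleomycin and from -0.023 to 0.28 in the difference of responses. Between 0 and 1 miRNAs were then called for genotype after bleomycin. Calls over all miRNAs split into 134 up and 84 down in WT and 182 and 162 in R213G. Equal medians gave 110 and 121, and 148 and 199, and quantile normalization gave 114 and 108, and 162 and 173.

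Replicate numbers gave no clear sign of pairing, as deviations of same-numbered libraries correlated from -0.145 to 0.262. With so few libraries per group these values cannot exclude pairing. With the replicate block 215 miRNAs were called in WT against 218, and 348 in R213G against 344. The miR-205-5p difference was -1.23 in WT and -1.90 in R213G with that block, and the miR-375-3p genotype difference after PBS was -0.0044.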
